A study of Mus musculus with 6 samples.

Results

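Oxidative phosphorylation genes were measured by RNA sequencing in primary T cells of the OT-I strain, taken from mouse lymph nodes and labelled wildtype. The cells had spent 2 h in medium with DSF (disulfiram) or with DMSO, the vehicle. OT-I T cells share a transgenic receptor that sees a peptide of ovalbumin. DSF is a drug against alcohol dependence that inhibits aldehyde dehydrogenases. The labels state no dose, no stimulation and no age of the animals. Each group held 3 libraries, titled as biological replicates. Whether they came from separate mice is not said, so p-values measure only the spread between these libraries, which may be technical.

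The members were the genes whose symbols follow the naming of complex I (Nduf and mt-Nd), complex II (Sdh), complex III (Uqcr and mt-Cytb), complex IV (Cox and mt-Co) and complex V (Atp5 and mt-Atp). A member also had a mean of at least 10 counts over the 6 libraries. The rule gave 92 of the 55536 genes in the deposited table, 79 from nuclear DNA and 13 from mitochondrial DNA. Of 110 symbols that matched, 17 lay under the mean and 12 of those had no count at all. Ndufb1-ps, with a mean of 724 counts, was left out for its name. Just inside the limit stood Cox7a1, at a mean of 25.7 counts, and Atp5s, at 82.8. Just outside it stood Cox6a2, at 3.5, and Cox4i2, at 3.17. Complex I had 43 members, complex II 4, complex III 9, complex IV 17 and complex V 19. Ndufa4, named for complex I and later found with cytochrome c oxidase, was counted with complex IV. All 92 members passed the filter on low counts.

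Oxidative phosphorylation takes electrons from NADH at complex I and from succinate at complex II. It passes them through ubiquinone to complex III, and through cytochrome c to complex IV, where oxygen is reduced. Complexes I, III and IV pump protons across the inner mitochondrial membrane, and complex V, the ATP synthase, uses that gradient to make ATP. Mitochondrial DNA encodes a core set of subunits in all of these but complex II, and nuclear DNA encodes the remaining ones. T cells raise mitochondrial mass and respiration when they are activated, and naive and memory T cells rely on respiration at rest.

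The DSF libraries held 18082264, 19611354 and 20951998 counts, and the DMSO libraries 18528236, 21893720 and 20149539. The T cell label was met by its markers. The summed level of 8 T cell markers was 2168 to 2222 CPM (counts scaled to the library's normalised total) with DSF and 2315 to 2362 CPM with DMSO. The sum of 6 B cell markers was 33.7 to 36.5 CPM with DSF and 34.2 to 37.4 CPM with DMSO. Every direction rests on reading the deposited group codes DF and DO as DSF and DMSO.

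The oxidative phosphorylation genes changed little after 2 h of DSF. At a Benjamini-Hochberg adjusted p under 0.05 in edgeR's quasi-likelihood test, 0 of the 92 members were higher and 2 were lower, while 22.9% of the 14318 genes tested were called. Calls higher with DSF made up 11.6% of all genes tested and calls lower 11.3%. Among the 6035 tested genes in the CPM range of most nuclear members, 32.3% were called, 15.9% higher and 16.4% lower. At an unadjusted p under 0.05 stood 10 of the 92 members, all of them lower. Of all 14318 genes tested 4616 stood there, 2316 of them lower. Of the 6035 genes in that range of CPM 2572 did, 1317 of them lower. The members called were Ndufa4, a small subunit found with cytochrome c oxidase, and Atp5mpl, a small membrane subunit of the ATP synthase. DESeq2 called 0 higher and 2 lower as well, but these were Ndufa4 and mt-Cytb, and limma on log2(TPM + 1) called none. In the authors' deposited table the adjusted p was under 0.05 for Ndufa4 (0.0383) and mt-Cytb (0.0460), against 8.54% of the genes they tested. The authors' deposited table marked neither as significant.

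Most members lay slightly below their DMSO level. The log2 fold change of DSF over DMSO was below 0 in 78 of 92 members and in 50.6% of all genes tested. Its median was -0.04 over the members, and 0.00 over all genes tested. Over the 79 nuclear members the median was -0.04 too. It was -0.0161 by limma on log2(TPM + 1), and -0.0103 after a trend with gene length was removed. The 95% interval of the change lay inside a 1.25-fold rise or fall in 85 of 92 members, in 49.7% of all genes tested and in 79.9% of genes in that range of CPM. All 3 DSF libraries lay below all 3 DMSO libraries in 20 members (21.7%), against 17.9% of all genes tested and 23.5% of genes in that range of CPM. All 3 lay above in 0 members, against 17.6%. In bulk RNA a smaller share of cells with these transcripts and less of them per cell cannot be told apart.

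Together, the 79 nuclear members took 0.817, 0.824 and 0.825% of the counts in the DSF libraries and 0.852, 0.857 and 0.840% in the DMSO libraries. These shares did not overlap, although the gap was a small part of the level. The 13 mitochondrial members with their nuclear copies took 2.90, 2.77 and 2.77% in the DSF libraries and 3.05, 2.85 and 2.85% in the DMSO libraries. The mitochondrial shares overlapped.

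**Figure D1:**
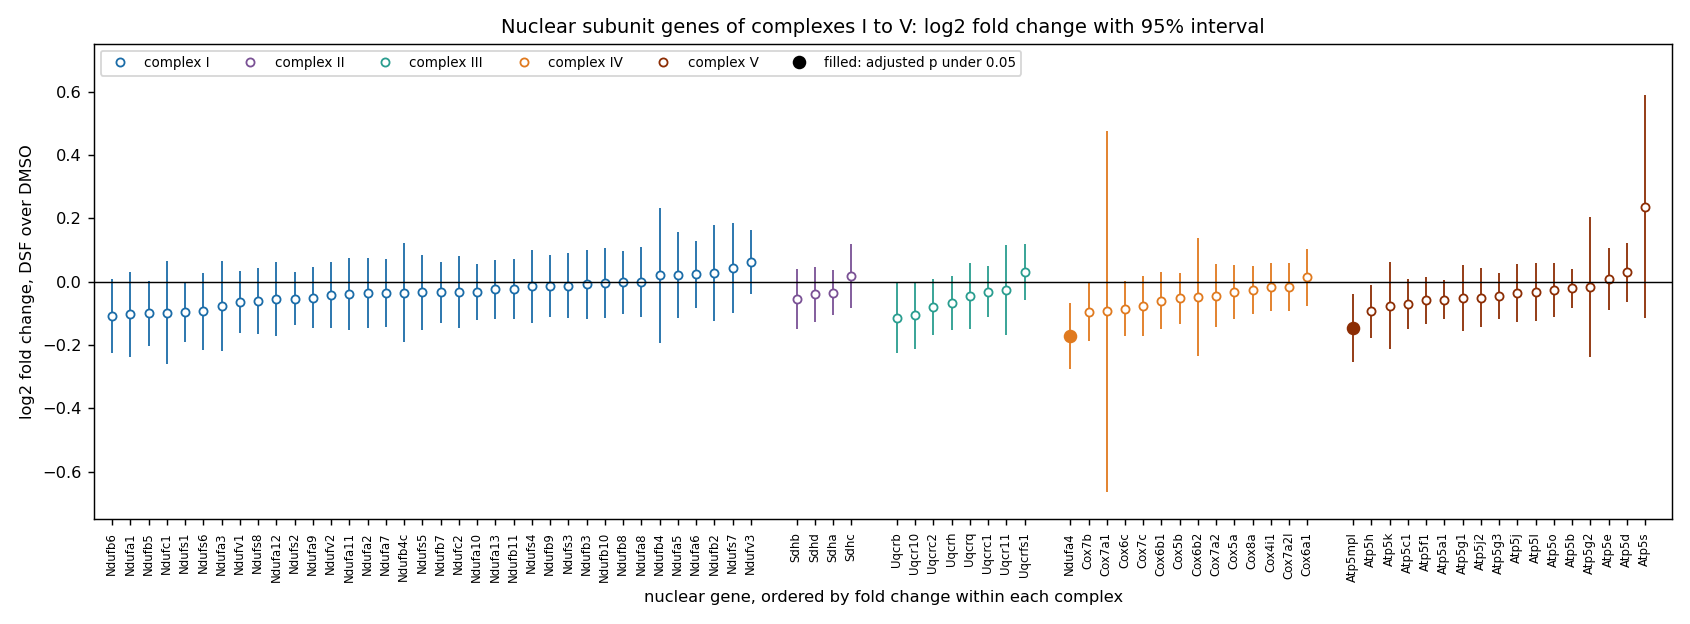
Log2 fold change of DSF over DMSO (vertical axis) with its 95% interval for the 79 nuclear members, grouped and coloured by complex and ordered within each. Filled points are the 2 genes called, Ndufa4 at -0.17 and Atp5mpl at -0.15; Atp5s, near the limit of the rule with a mean of 82.8 counts, is the highest at 0.24.

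Among the nuclear members of complex I, 0 of 36 were called by edgeR, with 1 at an unadjusted p under 0.05. The 36 include Ndufb4c, which is annotated as a processed pseudogene. Their median log2 fold change was -0.03, with a range of -0.11 to 0.06. Their median deposited per-length level was 128 TPM with DSF and 128 TPM with DMSO. Ndufs1, the largest subunit of the electron input arm, had 82.8, 84.9 and 81.5 CPM with DSF, against 92.4, 85.6 and 88.5 CPM with DMSO. The groups did not overlap, and the log2 fold change was -0.10 ± 0.05 (SE; edgeR's adjusted p = 0.152).

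Complex II, succinate dehydrogenase, links the chain to the tricarboxylic acid cycle and has no mitochondrially encoded subunit. None of its 4 members was called by edgeR, 0 had an unadjusted p under 0.05, 0 had groups without overlap, and their changes ran from -0.06 to 0.02 on the log2 scale. Of all genes tested 22.9% were called. All 3 DSF libraries lay below all 3 DMSO libraries in 17.9% of them and above in 17.6%. Beside these shares, a count of 0 among 4 genes says little. Sdha, the flavoprotein that oxidises succinate, had 221, 226 and 229 CPM with DSF, against 233, 228 and 231 CPM with DMSO. Sdhb, the iron-sulfur subunit, averaged 89.4 ± 0.643 CPM with DSF and 92.9 ± 3.93 CPM with DMSO (SD, n = 3 each). Sdhd, a membrane anchor, averaged 113 ± 2.93 CPM with DSF and 116 ± 2.34 CPM with DMSO. The groups overlapped for each of them.

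In complex III 0 of the 8 nuclear members were called by edgeR and 2 had an unadjusted p under 0.05, with a median log2 fold change of -0.06 and a range of -0.11 to 0.03. Uqcrb, a subunit near the ubiquinone site, had 47.8, 45.7 and 46.0 CPM with DSF, against 54.5, 48.8 and 47.8 CPM with DMSO. Uqcr10, a small membrane subunit, had 56.0, 56.8 and 57.1 CPM with DSF, against 59.0, 65.1 and 58.7 CPM with DMSO. Neither gene's groups overlapped, and edgeR's adjusted p was 0.139 for Uqcrb and 0.151 for Uqcr10.

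In complex IV, cytochrome c oxidase, 1 of the 14 nuclear members was called, and their median log2 fold change was -0.05. Ndufa4, on chromosome 6 at 11900292 to 11907497 of GRCm38 and with no exon shared with another gene, had 70.5, 72.1 and 66.3 CPM with DSF, against 83.7, 75.3 and 76.4 CPM with DMSO. The groups did not overlap, and the level with DSF was 0.888 of that with DMSO. The log2 fold change was -0.17 ± 0.05 (SE), with a 95% interval of -0.28 to -0.07 and edgeR's adjusted p = 0.0131. The call was lost without DSF library 3 (edgeR's adjusted p = 0.128) and without DMSO library 1 (edgeR's adjusted p = 0.0942), and on log2(TPM + 1) with limma (adjusted p = 0.117). Cox7b, a small nuclear subunit, had 88.4, 91.3 and 88.2 CPM with DSF, against 97.2, 96.1 and 93.0 CPM with DMSO. Its groups did not overlap either, and it was not called (edgeR's adjusted p = 0.136). Cox6c, another small membrane subunit, had 126.6, 119.1 and 123.3 CPM with DSF, against 136.3, 128.1 and 127.3 CPM with DMSO, without overlap (edgeR's adjusted p = 0.162).

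The nuclear subunits of complex IV exist in isoforms of which some are restricted to muscle, testis or lung. Of the Cox4 pair, Cox4i1 averaged 670 ± 12.6 TPM with DSF and 668 ± 38.5 TPM with DMSO, and Cox4i2, an oxygen-sensitive isoform, had at most 8 counts in a library. Of the Cox6a pair, Cox6a1 averaged 588 ± 29.7 TPM with DSF and 574 ± 33.1 TPM with DMSO, and the muscle isoform Cox6a2 had at most 7 counts. Cox6b1 averaged 473 ± 27.9 TPM with DSF and 471 ± 29.2 TPM with DMSO, and Cox6b2, known from testis, 71.2 ± 6.42 TPM with DSF and 76.3 ± 5.90 TPM with DMSO. Cox7a2 averaged 239 ± 9.31 TPM with DSF and 242 ± 7.67 TPM with DMSO, Cox7a2l, which helps to join complexes III and IV, 312 ± 8.14 TPM with DSF and 311 ± 3.83 TPM with DMSO, and the muscle isoform Cox7a1 11.7 ± 0.890 TPM with DSF and 12.5 ± 2.92 TPM with DMSO. Cox8a averaged 710 ± 11.3 TPM with DSF and 713 ± 5.91 TPM with DMSO (SD, n = 3 each throughout), and Ndufa4l2, the relative of Ndufa4 known from hypoxia, had at most 2 counts. In the Cox4, Cox6a and Cox6b pairs, and between Cox7a2 and Cox7a1, the broadly used isoform was the higher one per length in both groups. Cox4i1, Cox6b1 and Cox7a2l averaged slightly more TPM with DSF, although their log2 fold changes from counts were below 0. Of the 8 members named here 0 were called by edgeR, DESeq2 or limma, and Cox4i2, Cox6a2 and Ndufa4l2 lay under the limit of the rule.

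In complex V 1 of the 17 nuclear members was called, and their median log2 fold change was -0.04. Atp5mpl, on chromosome 12 at 111961375 to 111966977 of GRCm38, had 50.4, 48.1 and 48.9 CPM with DSF, against 57.4, 54.5 and 51.3 CPM with DMSO. The groups did not overlap, and the log2 fold change was -0.15 ± 0.05 (SE; edgeR's adjusted p = 0.0420). This call was lost without any 1 of DSF libraries 1, 2 and 3 or DMSO libraries 1 and 2 (edgeR's adjusted p = 0.0702 to 0.173), and with DESeq2 (adjusted p = 0.15), with limma (adjusted p = 0.209), with a trend of gene length removed (edgeR's adjusted p = 0.128) and with no filter on low counts (edgeR's adjusted p = 0.0597). Atp5a1, the alpha subunit of the catalytic head, had 734, 749 and 748 CPM with DSF, against 770, 769 and 782 CPM with DMSO. Its groups did not overlap at a log2 fold change of -0.06 ± 0.03 (SE; edgeR's adjusted p = 0.197). Atp5h, a subunit of the peripheral stalk, had 124, 120 and 125 CPM with DSF, against 135, 130 and 128 CPM with DMSO (edgeR's adjusted p = 0.107).

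The rotor ring of the ATP synthase is made of 1 protein that 3 genes encode. Per length, Atp5g3 averaged 493 ± 5.51 TPM with DSF and 501 ± 6.61 TPM with DMSO, Atp5g1 141 ± 10.0 TPM with DSF and 141 ± 7.96 TPM with DMSO, and Atp5g2 25.4 ± 1.92 TPM with DSF and 25.5 ± 1.39 TPM with DMSO (SD, n = 3 each). None was called, although the CPM of Atp5g3 did not overlap (log2 fold change -0.04 ± 0.04, SE; edgeR's adjusted p = 0.432). The level of Atp5g2 is uncertain, because 645 bases of its transcript are identical to the processed pseudogene Gm10175, and 96.0% of the counts of both genes stood at the pseudogene. Summed, they came to 235 ± 6.20 CPM with DSF and 236 ± 4.97 CPM with DMSO. Ndufb4 and the processed pseudogene Ndufb4c share 390 identical bases in the same way and are both members, with 62.6% of their sum at Ndufb4c.

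The 13 mitochondrial messenger RNAs needed the same care, because chromosome 1 holds a nuclear copy of a stretch of mitochondrial DNA. In all, 6 annotated genes there match a mitochondrial messenger RNA at 99.7 to 100% identity. In GRCm38 they run on the minus strand from 24612407, at the start of Gm10222, the copy of mt-Nd4l, to 24616197, at the end of Gm29216, the copy of part of mt-Co1. The copy held 97.8% of the summed counts for mt-Co2, 96.8% for mt-Co3, 93.9% for mt-Atp6, 91.7% for mt-Nd4l and 82.8% for mt-Nd3, but 3.74% for mt-Co1. The stretches below are 60 bases of each gene and of its copy, shown because they are what reads had to be told apart by. Capitals mark the base that differs, and the pair of mt-Co3 has no difference in the 783 bases aligned.
mt-Nd3: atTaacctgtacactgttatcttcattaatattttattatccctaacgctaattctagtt
Gm28438: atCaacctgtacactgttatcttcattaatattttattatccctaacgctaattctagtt
mt-Co1: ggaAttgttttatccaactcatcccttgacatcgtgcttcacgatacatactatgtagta
Gm29216: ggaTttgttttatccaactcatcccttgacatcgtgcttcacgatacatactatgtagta
mt-Co3: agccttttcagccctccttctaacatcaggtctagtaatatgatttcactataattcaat
Gm28437: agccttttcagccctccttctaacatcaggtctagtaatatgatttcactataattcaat
Counted from 1 at the 5′ end of the mitochondrial transcript, the substitutions were T3C in mt-Nd3 and A1066T in mt-Co1. The sequences are those of GENCODE M21 transcripts on GRCm38.

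The values of these genes alone were scattered. mt-Co3, a core subunit of cytochrome c oxidase, had 113, 0.102 and 101 CPM in the DSF libraries, against 78.5, 135 and 77.4 CPM in the DMSO libraries. In DSF library 2 it was listed at 2.39 counts, while its copy held 50404 counts there. With the copy added, mt-Co3 had 2643, 2580 and 2596 CPM with DSF, against 2920, 2722 and 2641 CPM with DMSO, and the coefficient of variation with DSF was 1.26% in place of 86.9%. mt-Co2, which receives electrons from cytochrome c, had a log2 fold change of 0.89 ± 0.41 (SE; edgeR's adjusted p = 0.244) alone and -0.05 ± 0.03 (edgeR's adjusted p = 0.235) with its copy. mt-Nd3, a membrane subunit of complex I, went the same way under both, at -0.67 ± 0.26 alone and -0.15 ± 0.07 with its copy (edgeR's adjusted p = 0.182 and 0.186). Its lower value alone passed without DMSO library 1 (edgeR's adjusted p = 0.00575). Which of a pair was transcribed was not tested.

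**Figure D2:**
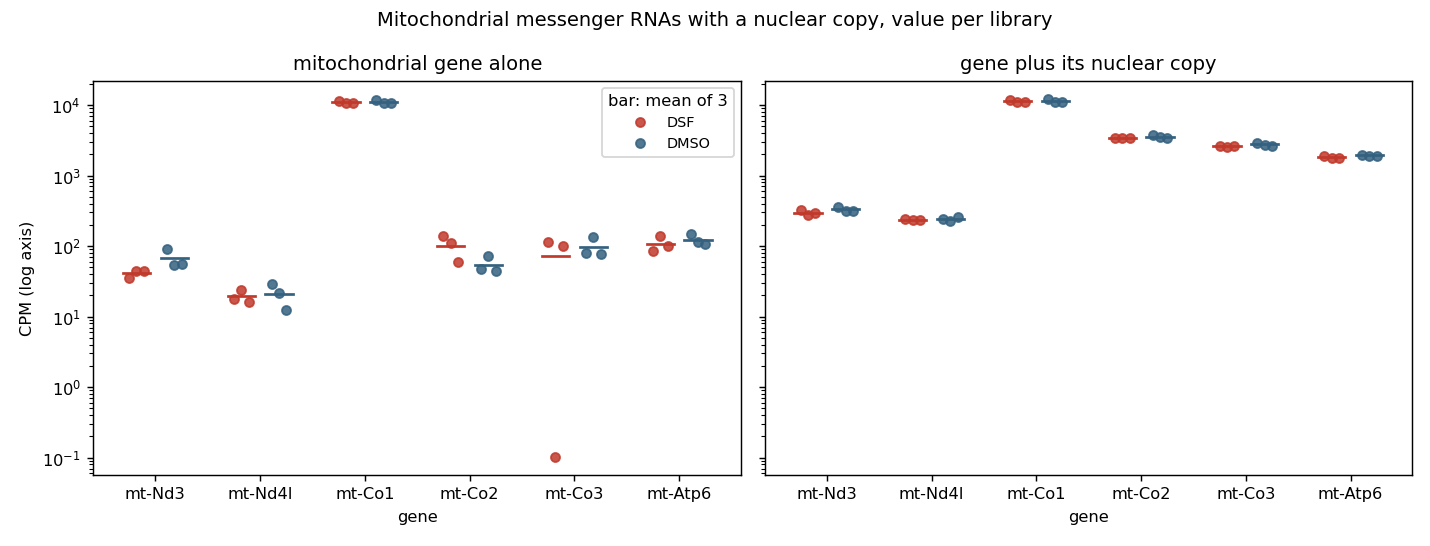
CPM on a log axis for the 6 mitochondrial messenger RNAs with an annotated nuclear copy, for the gene alone (left) and with its copy added (right). Points are libraries, DSF in red and DMSO in blue, and bars are means of 3; mt-Co3 alone falls to 0.102 CPM in DSF library 2, and the scatter closes when copies are added.

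With the copies summed, 0 of the 13 mitochondrial messenger RNAs were called in either direction, in a fit that called 22.8% of 14307 genes. The lowest adjusted p was 0.0534, of mt-Atp6, and 5 of the 13 had an unadjusted p under 0.05 by edgeR. In the fit without summing, 4616 of all 14318 genes tested had such a p. In 12 of 13 the log2 fold change was below 0, with a median of -0.07 and a range of -0.15 to 0.01. The 95% interval of every one lay inside a 1.25-fold rise or fall. These transcripts are cut from long shared precursors, so they are not independent of each other.

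By role, the complex I core subunits with no annotated copy were close to their DMSO level. mt-Nd1, which helps form the ubiquinone site, had 2200, 2033 and 2045 CPM with DSF, against 2342, 2135 and 2110 CPM with DMSO. mt-Nd2, of the membrane arm, had 1027, 947 and 951 CPM with DSF, against 1081, 1020 and 1010 CPM with DMSO. The groups overlapped for both, and mt-Nd2 stood nearest to the threshold of the messenger RNAs in the deposited counts (edgeR's adjusted p = 0.0655). It passed without DSF library 1 (edgeR's adjusted p = 0.0169), and with no other library left out. With all libraries it passed with scaling by library totals only, with no filter on low counts and with the replicate number as a block. mt-Nd4 averaged 1475 ± 65.1 CPM with DSF and 1506 ± 54.3 CPM with DMSO, and mt-Nd5, a proton-pumping subunit, 1470 ± 19.4 CPM with DSF and 1456 ± 70.3 CPM with DMSO. mt-Nd4l, at 243, 234 and 236 CPM with DSF and 245, 223 and 260 CPM with DMSO after summing, overlapped too.

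mt-Nd6 is the complex I subunit encoded on the other strand. It had 191, 183 and 181 CPM with DSF, against 195, 198 and 195 CPM with DMSO, without overlap (log2 fold change -0.08 ± 0.04, SE; edgeR's adjusted p = 0.103). mt-Cytb, the haem-bearing core of complex III, had 2160, 2104 and 2135 CPM with DSF, against 2339, 2182 and 2215 CPM with DMSO, also without overlap. Its log2 fold change was -0.07 ± 0.03 (SE; edgeR's adjusted p = 0.0914), and it passed with DESeq2 (adjusted p = 0.0437).

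mt-Co1, the catalytic subunit of cytochrome c oxidase, was the most counted mitochondrial messenger RNA. With the nuclear copies added, it made up 40.2 ± 0.0864% of the counts of the 13 with DSF and 39.4 ± 0.375% with DMSO (SD, n = 3 each). These shares did not overlap, at 40.1 to 40.3% with DSF and 39.2 to 39.9% with DMSO. Without its copy, mt-Co1 had 11303, 10746 and 10775 CPM with DSF, against 11794, 10685 and 10663 CPM with DMSO. The log2 fold change was -0.01 ± 0.04 (SE, edgeR's adjusted p = 0.840). With its copy, mt-Co1 had 11667, 11193 and 11187 CPM with DSF, against 12206, 11156 and 11108 CPM with DMSO. That log2 fold change was -0.02 ± 0.03 (SE, edgeR's adjusted p = 0.773). mt-Atp6, the proton channel of the ATP synthase, had 1884, 1782 and 1787 CPM with DSF, against 1987, 1921 and 1872 CPM with DMSO, after summing. mt-Atp8 averaged 165 ± 10.2 CPM with DSF and 176 ± 14.2 CPM with DMSO, and shares 43 bases with mt-Atp6. It lies between mt-Co2 and mt-Atp6, which both have copies on chromosome 1. No annotated copy of mt-Atp8 was found, so its counts stand without summing. Its deposited TPM, 21029 ± 1407 with DSF and 22880 ± 1163 with DMSO, lay above that of mt-Co1, 10595 ± 339 TPM with DSF and 10508 ± 458 TPM with DMSO, although its transcript has 204 bases, so per-length levels of the shortest genes are uncertain here.

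**Figure D3:**
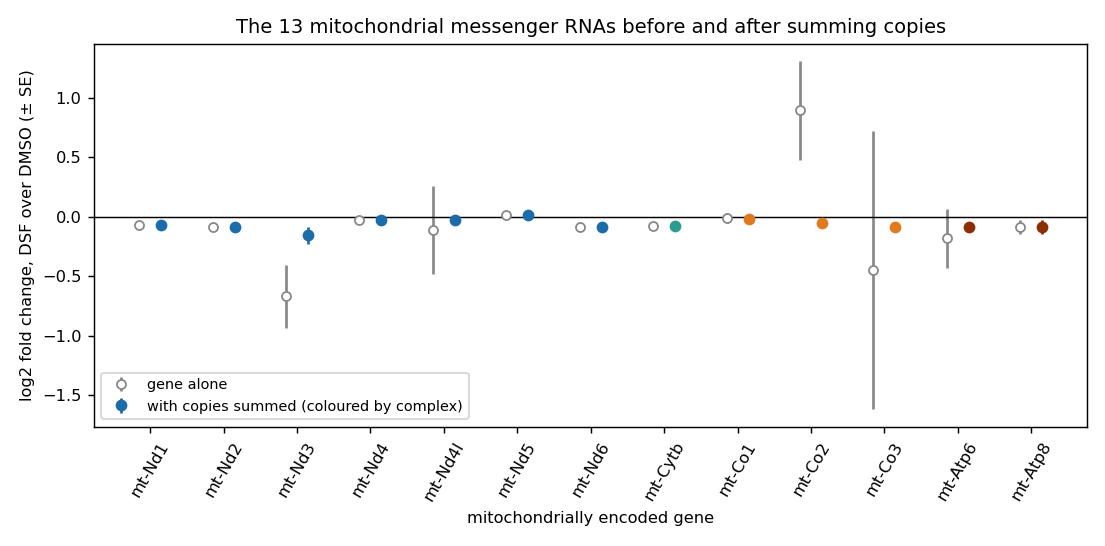
Log2 fold change of DSF over DMSO (vertical axis, ± SE) for the 13 mitochondrial messenger RNAs, as deposited (open grey) and with nuclear copies summed (filled, coloured by complex). After summing all 13 lie between -0.15 and 0.01.

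Start sites of the nuclear members were searched for motifs of factors known to drive respiratory genes. RefSeq start-site windows of 300 bases (GRCm38.p6, from 250 before to 50 after the start) were matched for 66 of the 79 nuclear members. The motif of NRF1, a transcription factor of many respiratory genes, searched as GCGCATGCG on both strands, was in windows of 8 of the 66 (12.1%), against 1.95% of all 27025 genes with a window. The ETS core CCGGAAG, which the factor GABP binds, was in 16 (24.2%), against 9.93%. The YY1 motif AAGATGGCG was in 7 (10.6%), against 1.64%. The 150 bases before the start of Ndufa11, a complex I subunit (chr17:56717612-56717761, plus strand), and of Atp5k, an ATP synthase subunit (chr5:108434400-108434549, minus strand), are given as examples, with the NRF1 motif on both strands in capitals.
Ndufa11: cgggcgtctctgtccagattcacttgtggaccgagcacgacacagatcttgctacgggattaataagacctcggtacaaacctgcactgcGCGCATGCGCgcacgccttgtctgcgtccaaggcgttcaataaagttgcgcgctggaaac
Atp5k: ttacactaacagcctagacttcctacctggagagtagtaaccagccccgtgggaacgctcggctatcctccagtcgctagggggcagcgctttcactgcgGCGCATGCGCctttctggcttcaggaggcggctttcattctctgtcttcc
The median log2 fold change was -0.03 in the 8 members with the NRF1 motif and -0.04 in the 58 without. It was -0.04 in the 16 with the ETS core and -0.03 in the 50 without, and -0.05 in the 7 with the YY1 motif and -0.03 in the 59 without. A match is a match of letters and was not taken as a site.

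The regulators of these programmes were called at a share near that of genes in the CPM range of most nuclear members. Of 14 listed, 12 were tested, 1 was higher and 3 were lower by edgeR. The share called was 33.3%, beside 32.3% of genes in that range and 22.9% of all genes tested. DESeq2 called 1 higher and 2 lower, and limma 1 higher and 0 lower. Pprc1, a coactivator of the PGC-1 family, fell to 73.0, 74.7 and 73.4 CPM with DSF, against 88.4, 91.8 and 87.6 CPM with DMSO (log2 fold change -0.28 ± 0.05, SE; edgeR's adjusted p = 2.46e-05). Esrra, the nuclear receptor ERR alpha that drives respiratory genes, fell to 33.8, 37.3 and 37.9 CPM with DSF, against 45.2, 43.4 and 42.0 CPM with DMSO. Ppargc1b, PGC-1 beta, a gene named after its values were seen, averaged 1.37 ± 0.188 CPM with DSF and 2.37 ± 0.674 CPM with DMSO. Its call (edgeR's adjusted p = 0.0233) was lost without DSF library 1 or 3 or DMSO library 1 or 3 (edgeR's adjusted p = 0.0689 to 0.171). Nrip1, a corepressor of oxidative genes, rose to 181, 178 and 174 CPM with DSF, against 147, 142 and 152 CPM with DMSO. Each of these 4 genes had groups that did not overlap. Nrf1 and Gabpa, which encode NRF1 and a subunit of GABP, were not called, with Nrf1 at 45.5 CPM with DSF and 45.6 CPM with DMSO, and Gabpa at 114 CPM in both.

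Some of the genes that maintain and express mitochondrial DNA were lower. Of 26 genes of mitochondrial DNA replication, transcription and RNA processing, 10 were lower and 0 higher, with a median log2 fold change of -0.12. The share lower was 38.5%, against 11.3% of all genes tested and 16.4% of genes in the CPM range of most nuclear members. Elac2, which cuts the 3′ ends of mitochondrial transfer RNAs out of the precursor, fell to 53.5, 57.6 and 51.2 CPM with DSF, against 68.5, 66.7 and 69.3 CPM with DMSO. Pnpt1, a polynucleotide phosphorylase of the mitochondrion, averaged 53.7 ± 2.28 CPM with DSF and 64.5 ± 1.87 CPM with DMSO. Twnk, the mitochondrial helicase, averaged 12.5 ± 0.794 CPM with DSF and 16.8 ± 1.11 CPM with DMSO. The log2 fold changes were -0.33 ± 0.05, -0.26 ± 0.05 and -0.43 ± 0.09 (SE), and none of the 3 lost its call without any 1 library. The list's count fell to 7 to 8 when 1 library was left out, and was 6 with DESeq2 and 2 with limma.

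Of 78 mitochondrial ribosomal protein genes, which build the ribosome that translates the 13 messenger RNAs, 23 were lower and 0 higher, with a median log2 fold change of -0.09. The share lower was 29.5%, against 11.3% of all genes tested and 16.4% of genes in the CPM range of most nuclear members. The large subunit had 13 of 49 lower and the small subunit 10 of 29. Mrps23 fell to 52.1, 46.3 and 51.1 CPM with DSF, against 61.8, 61.0 and 57.1 CPM with DMSO. Mrpl50 averaged 23.6 ± 0.578 CPM with DSF and 29.1 ± 0.588 CPM with DMSO, and Mrpl18 74.0 ± 2.28 CPM with DSF and 84.7 ± 1.72 CPM with DMSO. The called genes lay between -0.37 and -0.16 on the log2 scale. The count was 14 to 18 without 1 library, 6 with DESeq2 and 6 with limma, and the median was -0.05 with limma. None of 10 mitochondrial translation factors was called by edgeR, DESeq2 or limma, and 2 were at an unadjusted p under 0.05.

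Assembly factors help to put the complexes together without being part of them. Of 15 for complex I, 5 were lower and 0 higher, with a median log2 fold change of -0.18. The share lower was 33.3%, against 11.3% of all genes tested and 16.4% of genes in the CPM range of most nuclear members. Tmem186 fell to 14.9, 14.0 and 14.9 CPM with DSF, against 19.4, 19.4 and 18.3 CPM with DMSO (edgeR's adjusted p = 0.000374). Ndufaf4 and Foxred1 also fell, at log2 fold changes of -0.26 ± 0.08 and -0.18 ± 0.06 (SE), and so did Ecsit and Ndufaf1, which were named after their values were seen. Apart from Tmem186 these calls were lost without 1 library, without DSF library 2 or DMSO library 3 for Ndufaf4, DSF library 1 or 2 or DMSO library 2 or 3 for Foxred1, DSF library 3 or DMSO library 2 or 3 for Ecsit, and DSF library 2 or 3 or DMSO library 1 or 2 for Ndufaf1 (edgeR's adjusted p = 0.0503 to 0.248). The list's count was 2 to 4 without 1 library, 1 with DESeq2, which was Tmem186, and 1 with limma. The gene that limma called was none of these 5, and Tmem186 had an adjusted p of 0.0537 with limma. Its median was -0.17 to -0.11 without 1 library, and came to -0.11 without DSF library 3 and without DMSO library 1.

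The other assembly lists had 1 lower gene each, or 3 of 34 together (8.82%), a share under the 11.3% of all genes tested. Sdhaf1, for complex II, averaged 5.33 ± 1.25 CPM with DSF and 7.45 ± 0.392 CPM with DMSO, in a list of 10 for complexes II and III. Coa7 averaged 9.51 ± 1.33 CPM with DSF and 12.1 ± 1.39 CPM with DMSO in a list of 20 tested for complex IV, and Tmem70 31.6 ± 0.285 CPM with DSF and 35.9 ± 2.02 CPM with DMSO in a list of 4 for complex V. Their calls were lost without DSF library 1 or DMSO library 1 for Sdhaf1, DSF library 3 or DMSO library 1 for Coa7, and any DSF library or DMSO library 1 for Tmem70 (edgeR's adjusted p = 0.0591 to 0.215). DESeq2 and limma called none of them.

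**Figure D4:**
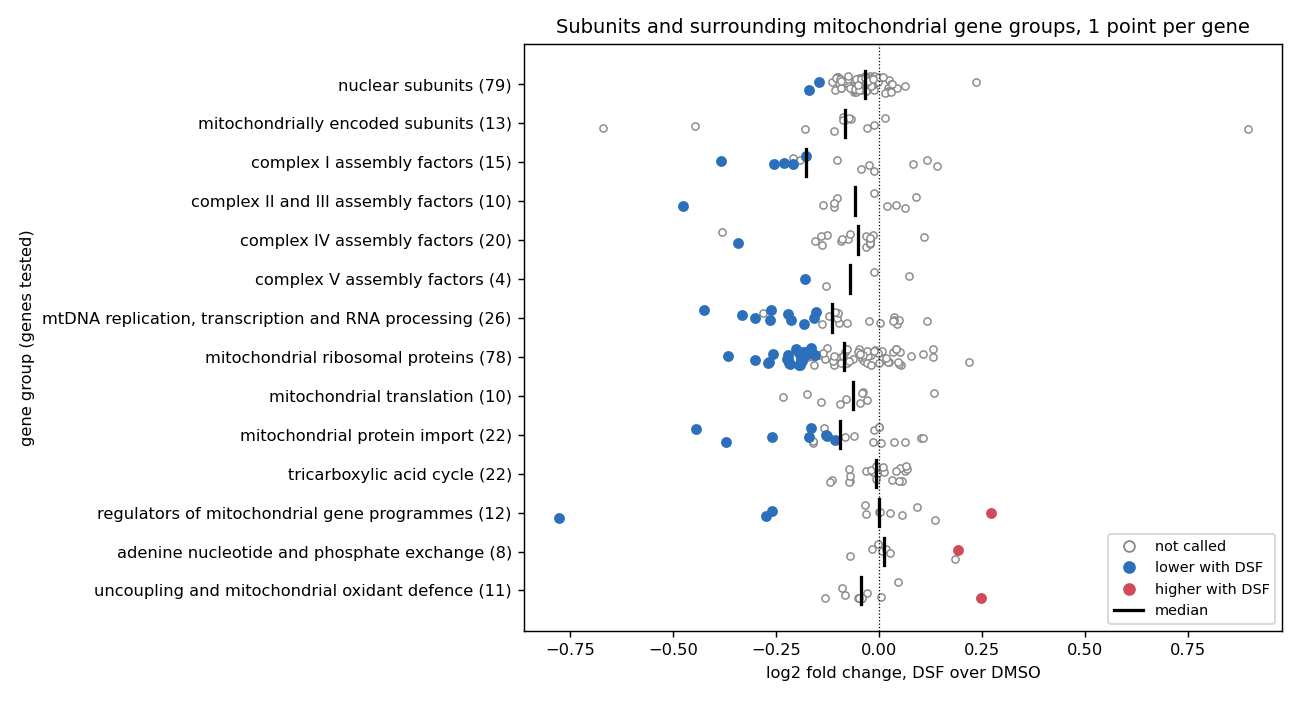
Log2 fold change of DSF over DMSO (horizontal axis), 1 point per tested gene, for the subunits (top 2 rows) and the surrounding gene groups. Blue points were called lower, red points higher and open points not called; the black bar is the median, from -0.18 for complex I assembly factors to 0.01 for nucleotide and phosphate exchange.

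Most subunits enter the mitochondrion through the import machinery, where 8 of 22 genes were lower and 0 higher, with a median log2 fold change of -0.09. The share lower was 36.4%, against 11.3% of all genes tested and 16.4% of genes in the CPM range of most nuclear members. Timm9, an intermembrane space chaperone, fell to 21.9, 19.7 and 17.2 CPM with DSF, against 27.1, 26.5 and 26.4 CPM with DMSO. Tomm5 averaged 40.6 ± 1.97 CPM with DSF and 48.6 ± 1.37 CPM with DMSO, and the receptor gene Tomm70a 175 ± 6.86 CPM with DSF and 197 ± 2.62 CPM with DMSO. The count was 6 to 8 without 1 library, 7 with DESeq2 and 4 with limma.

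The pathways at either end of the chain were mostly level. None of 22 genes of the tricarboxylic acid cycle and pyruvate oxidation was called by edgeR, DESeq2 or limma, and 2 had an unadjusted p under 0.05. Their median log2 fold change was -0.01, and it lay between -0.02 and 0.01 without 1 library. By these 3 tools none was called of 11 further subunits and carriers whose names fall outside the rule, and 0 had an unadjusted p under 0.05 by edgeR, among them cytochrome c, Cycs, at 96.2 CPM with DSF and 98.8 CPM with DMSO. Of 8 genes of nucleotide and phosphate exchange only Slc25a24, an ATP-magnesium and phosphate carrier, was called. It rose to 89.3, 79.5 and 79.9 CPM with DSF, against 72.6, 68.5 and 76.9 CPM with DMSO. The call was lost without DSF library 1 or DMSO library 2 (edgeR's adjusted p = 0.0746 and 0.0891), and limma did not call it. Of 11 genes of uncoupling and oxidant defence only Ucp2, an inner-membrane carrier of the uncoupling protein family, was called. It rose to 255, 255 and 250 CPM with DSF, against 203, 220 and 216 CPM with DMSO (log2 fold change 0.25 ± 0.04, SE).

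**Figure D5:**
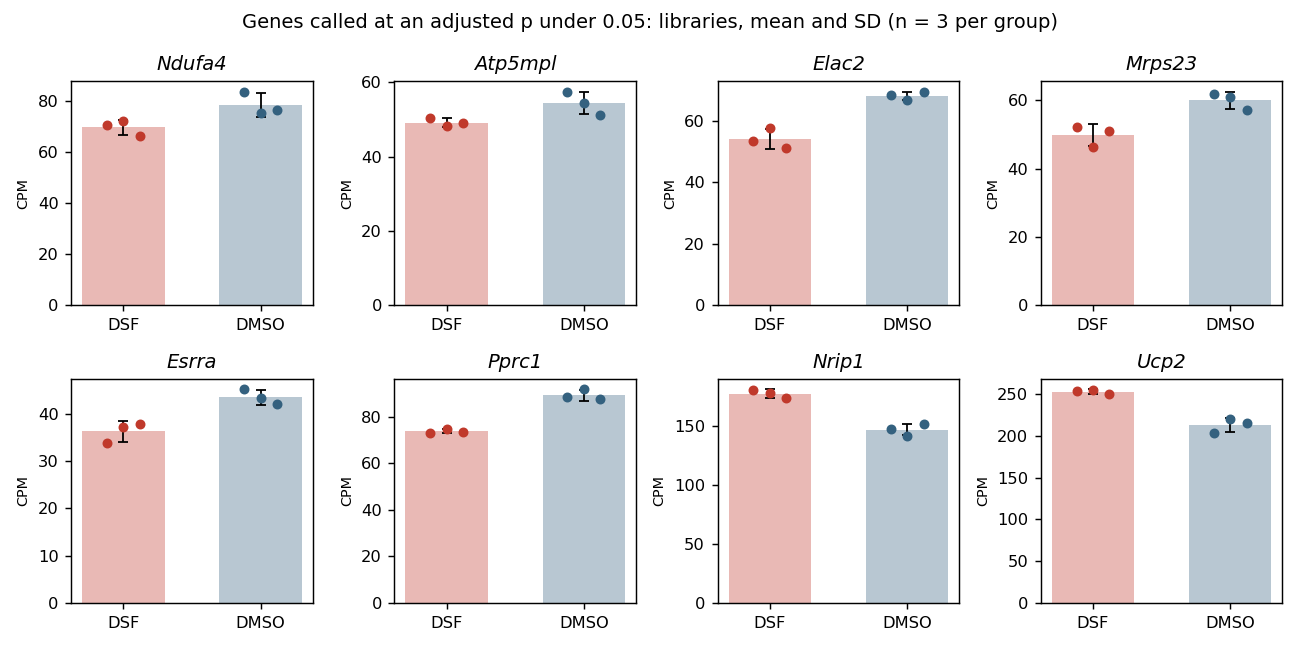
CPM (vertical axis from 0) of 8 called genes in DSF (left bar) and DMSO (right bar) libraries; points are libraries, bars means and whiskers SD, n = 3 per group. DSF libraries lie below DMSO libraries for the first 6 genes and above them for Nrip1 and Ucp2.

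Of markers of other cells, 28.6% of the myeloid list and 33.3% of the natural killer list were called, against 22.9% of all genes tested. These lists are short. Of the myeloid list, with 7 markers tested, Xcr1 and Mpeg1 were lower and 0 were higher, at 5.38 ± 1.10 CPM with DSF and 10.7 ± 1.59 CPM with DMSO for Xcr1 and 13.1 ± 1.02 CPM with DSF and 15.5 ± 0.981 CPM with DMSO for Mpeg1. The call of Mpeg1 was lost without DSF library 1 or 3 or DMSO library 1 or 3 (edgeR's adjusted p = 0.0603 to 0.246). Neither DESeq2 nor limma called Mpeg1. The summed level of the myeloid list was 39.4 to 41.4 CPM with DSF and 47.6 to 49.2 CPM with DMSO. Of 3 natural killer cell markers Eomes was lower, a gene that CD8 T cells express too, with a summed level of 40.3 to 43.2 CPM with DSF and 49.6 to 50.6 CPM with DMSO. None of 6 B cell and 4 stromal, endothelial, erythroid and platelet markers was called by edgeR, DESeq2 or limma, with 1 B cell marker and 0 of the others at an unadjusted p under 0.05, and no marker was at 0 in every library. Of 8 T cell markers, 50% of them called, Cd2 was higher, and Cd8a, Trac and Cd3g, the last of them named after its values were seen, were lower. Their part in the results for the members was not tested.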

How the data were processed

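Per the labels' protocols, total RNA went into a SMARTER library kit for messenger RNA. Per the submitters' processing notes, the genome was GRCm38, also called mm10. For the aligner, counter and strandedness, nothing is given in the sources used here. The authors deposited expected counts per gene and library, which are not normalised and need not be whole, and TPM per library with group means, per the file headers. The same table holds a length in bases, and the authors' log2 fold changes with p-values and adjusted p-values. Columns A and B were read as DMSO and DSF, because the deposited DO and DF mean TPM equal their means in all 55536 genes within 0.0001 TPM. Of the columns with values per library, 0 were left unused. A second deposited table was not used here.

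Whole counts had been planned for, so expected counts were rounded. Genes were filtered with filterByExpr (14318 tested, 41218 removed), scaled by TMM (factors 0.9952 to 1.0053) and tested with edgeR 4.0.16 (glmQLFit, robust, under R 4.3.3). The biological coefficient of variation was 4.44%. Standard errors are approximate, and a floor of 3 counts was worth 0.137 to 0.166 CPM and covers counting error only. Calls used a Benjamini-Hochberg adjusted p under 0.05 over all genes. The pipeline was tested on simulated data. DESeq2 1.42.0 and limma 3.58.1 on log2(TPM + 1) were among the alternatives.

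Copies were genes with a mean of at least 1 count whose GENCODE M21 transcripts aligned to a member's (BLAST+ 2.17.0) at 95% identity or more over at least 80% of the copy. Their counts were added to the member for a further fit, chosen after seeing the data. Of the members, 37 have exons that overlap another gene, 27 of them on the opposite strand. Members and lists were chosen with earlier results of these data known. Named members were those called, the 3 with the smallest p and the highest per-length level in each complex, the 13 mitochondrial messenger RNAs and the isoform sets. Each list gave up to 3 called genes with the smallest p. Genes outside this rule are marked in the text, or were named as the copy, marker or regulator a sentence is about.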

Additional observations from a re-analysis of the deposited data

How the results depend on the processing

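The count of 0 members higher held under 8 alternatives and without any 1 of the 6 libraries. The count of lower members, 2, was 0 with limma on log2(TPM + 1), 1 with a trend of gene length removed, 3 with library totals only and 7 with the replicate number as a replicate block. It was 0 to 3 when 1 library was left out (0 without DSF library 3, and 1 without DSF library 2, DMSO library 1 or DMSO library 2). With no filter on low counts the 2 were Ndufa4 and mt-Nd2. The 7 under the block were Ndufa4, Atp5mpl, Atp5h, mt-Cytb, mt-Nd1, mt-Nd2 and mt-Nd6. Same-numbered libraries deviated together with correlations of 0.0349 to 0.0547, and every library correlated best with its own number. These correlations are weak, and those of libraries with unlike numbers ran from -0.0518 to 0.0041. No label states a pairing, so whether the libraries were paired is not known. All genes called, 3276, came to 1348 with limma, 3829 with the block and 2565 to 2972 without 1 library. The nuclear median of -0.04 was -0.0161 with limma, -0.0103 with the length trend removed, and -0.05 to -0.03 without 1 library. The mitochondrial median of -0.08 was -0.06 with limma and -0.05 with the length trend removed. It was -0.09 to -0.03 without 1 library, the last of these without DMSO library 1. The causes were not tested. With 3 libraries a group, changes of the size seen in most members were within the libraries' spread.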
